A study of Mus musculus with 30 samples.

Results

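The 4 libraries described here came from 2 healthy organs of tumour-free mice: 2 libraries from lung and 2 from brain, of 30 libraries in the series. They were chosen by their labels alone, as the columns of the deposited count table for the lung and brain control microenvironment. The study put cultured circulating tumour cells of human origin into the left ventricle of the heart and later sequenced the host cells around the lesions in bone, lung and brain, with organs of tumour-free mice as controls. All libraries came from female NSG mice, an immunodeficient strain that carries the scid mutation of Prkdc and a null allele of the cytokine receptor gene Il2rg and lacks mature T, B and NK cells. Per the labels, the mice were 6 to 8 weeks old, the tissue was dissociated into single cells, cells without GFP were sorted as stromal cells, and 50000 such cells gave the RNA of a library. The 2 lung and 2 brain controls had met no tumour cells, and the same protocol text, which includes slow-release estrogen pills, stands on every sample. For the tumour-free mice, their use was not given in the sources used here. Nothing in the labels says that the 2 libraries of an organ came from different mice, so the spread between them may be technical. The p-values measure the spread within organs over 7 tumour-free libraries, which include 3 from bone.

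Sorting against GFP leaves every host cell that survives dissociation, so in a tumour-free organ the sorted cells can be of any type. In the lung, thin type 1 and surfactant-making type 2 cells line the alveoli over a dense capillary bed, alveolar macrophages patrol the airspace, and club and ciliated cells line the airways. In the brain, neurons are embedded among astrocytes, oligodendrocytes and microglia, and the capillary endothelium forms the blood-brain barrier, which limits the entry of cells and solutes. Tumour cells injected into the left ventricle travel with the arterial blood, and the resting state of each organ they reach is the baseline for any change beside a lesion.

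The lung libraries held 11160784 and 10751803 counts and the brain libraries 6270956 and 7504650 counts. Each lung library had a count for 22792 or 22894 genes and each brain library for 23736 or 24146 genes. The 2 lung libraries differed from each other by more than sampling noise, and so did the 2 brain libraries (chi-square per degree of freedom 11.2 and 9.64), so each was kept as a separate sample. The biological coefficient of variation, the typical spread of a gene between libraries of an organ beyond counting error, was 0.115 in lung and 0.131 in brain. The labels of organ and sex were checked against the transcripts. Lung and brain markers separated the libraries without overlap in the plot of marker genes, except for Foxj1 and Slc2a1, which are shared by both organs, and the Y-linked genes Ddx3y, Eif2s3y and Kdm5d had 0 counts in all 4 libraries, while Xist, made from the inactive X chromosome, had 903 and 914 CPM in lung and 1208 and 999.6 CPM in brain. The label "stromal cells" did not describe the content alone: transcripts that define epithelium, leukocytes, neurons and glia were all abundant, as described below.

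**Figure D1:**
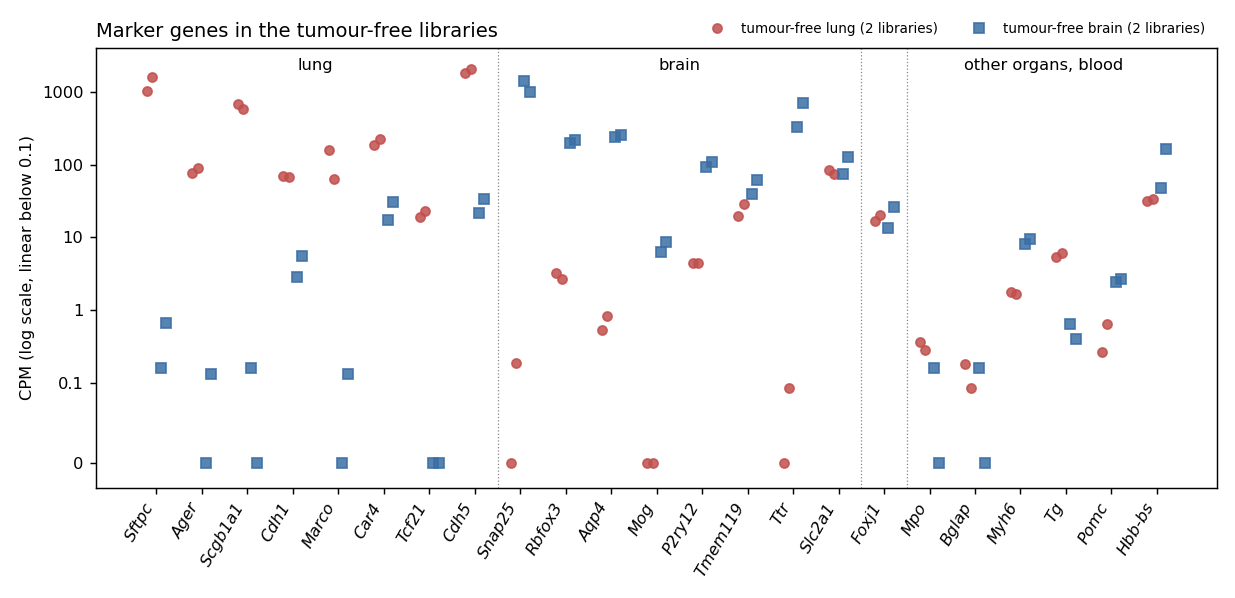
CPM (counts scaled to a library total of 1000000, log scale, linear below 0.1) of marker genes fixed for lung (left), brain (middle), the motile cilia shared by both (Foxj1) and other organs or blood (right) in the 2 tumour-free lung libraries (red circles) and the 2 tumour-free brain libraries (blue squares). Sftpc stood at 1044 and 1606 CPM in lung and at 0.16 and 0.666 CPM in brain, Snap25 at 0 and 0.186 CPM in lung and at 1404 and 1012 CPM in brain, and Slc2a1 and Foxj1 overlapped.

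The 2 organs differed in most of the genes that could be tested. Of 18859 genes with enough counts, 13577 differed at an adjusted p under 0.05 in edgeR's quasi-likelihood test, which is 72% of the genes tested. In the lung libraries 6526 genes (34.6%) were higher, and in the brain libraries 7051 (37.4%). The median log2 fold change over all genes tested, lung minus brain, was -0.06. Against a null of a 2-fold difference, 8500 genes (45.1%) passed, of which 3994 (21.2%) were higher in lung and 4506 (23.9%) in brain. With a background this high, a single call says little about a gene, and the size of the difference and the count over a whole gene list carry more of the description. Each list count of this fit given below has the 34.6% in lung and 37.4% in brain as its background. On the brain side the very large differences were more numerous: 1222 genes were called with a fitted difference of at least 64-fold in brain against 432 in lung, and 2015 against 1136 at 16-fold or more. The lung libraries held more counts, and these numbers were not repeated with equal library totals. CPM, counts scaled to 1000000 per library, did not overlap between the lung and brain libraries for 16412 genes (87%). Genes outside the protein-coding class followed the same side, with 224 of 487 lincRNAs higher in brain and 120 higher in lung, while protein-coding genes were split evenly, with 5663 higher in brain and 5865 higher in lung of 15589. A fit over all 30 libraries also took in the spread of the libraries from tumour-bearing mice. It tested 21233 genes and called 5165, 2467 higher in lung and 2698 higher in brain, with none of the 13577 in the opposite direction. Its counts for single lists, given below, have these numbers as background and not the shares given above. Of 1088 genes on the lists or named by rule, 443 lost their call in the 30-library fit, and the lost calls of described genes are given below.

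**Figure D2:**
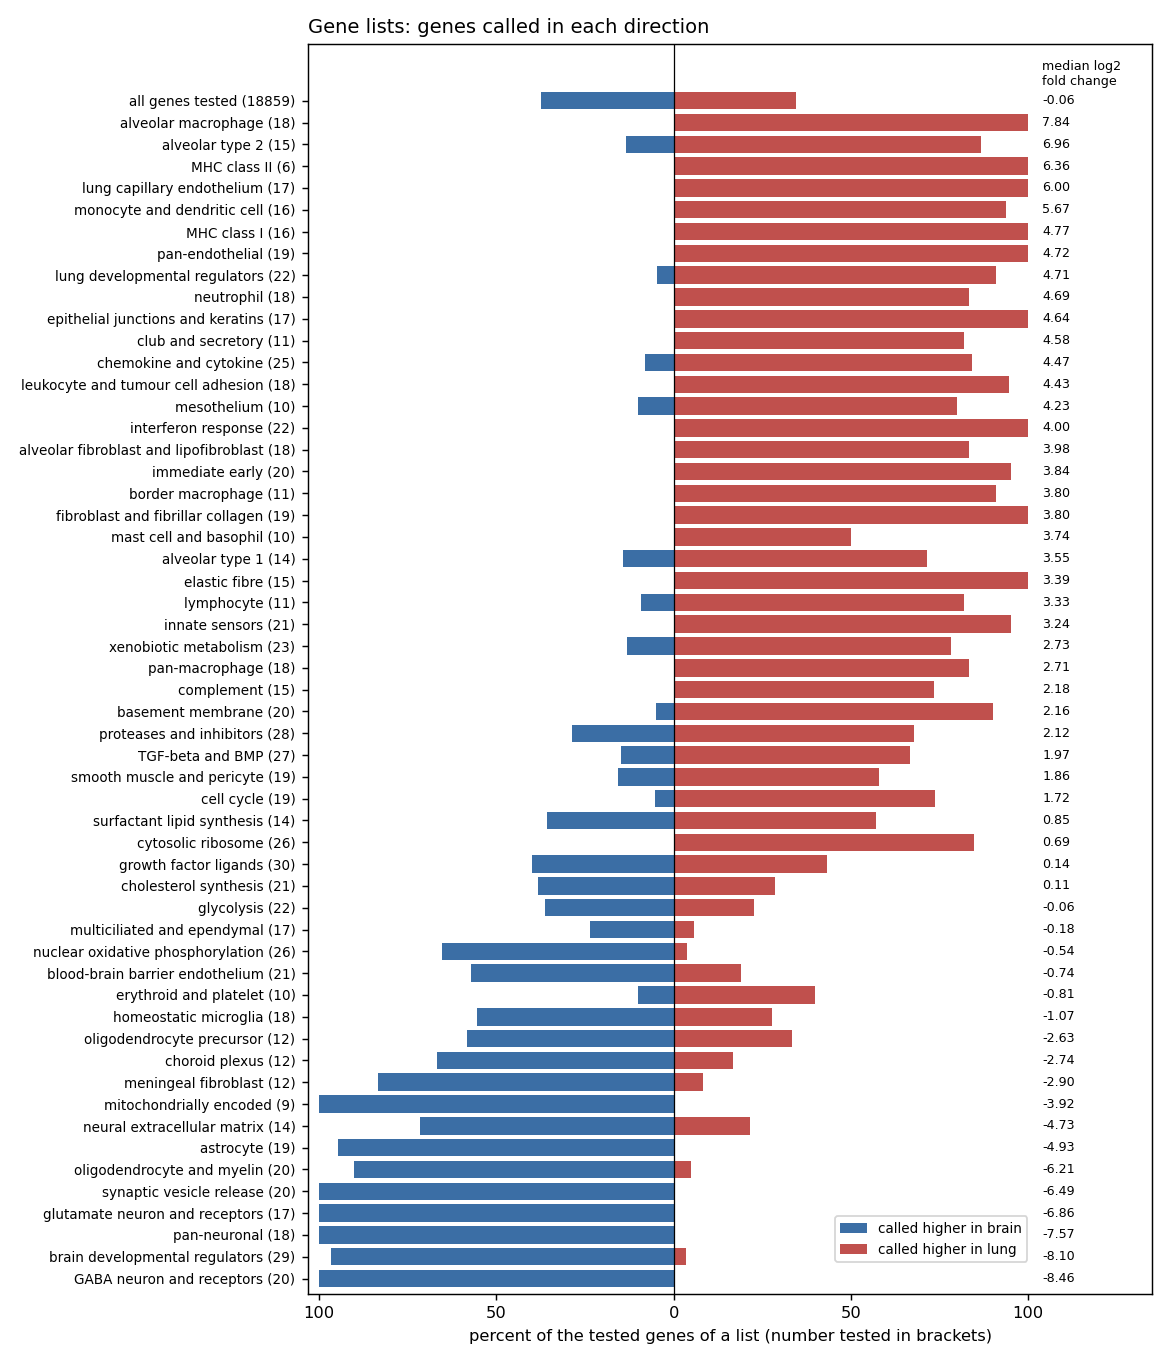
Share of the tested genes of each list that was called higher in lung (red, to the right) or higher in brain (blue, to the left) by edgeR at an adjusted p under 0.05. The number of genes tested stands in brackets, the median log2 fold change (lung minus brain) at the right edge, and the row for all 18859 genes tested at the top gives the background. Lists of lung cell types, vessels and immune genes reach to the right, lists of neurons and glia to the left, and those of cilia, glycolysis and growth factors to both sides.

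The gas-exchange and airway epithelium was strongly present in the lung libraries and nearly absent from the brain libraries. Of 15 genes of the alveolar type 2 cell, 13 were higher in lung and 2 in brain, with a median log2 fold change of 6.96. Sftpc, which encodes the hydrophobic surfactant protein C, had 1044 and 1606 CPM in the lung libraries and 0.16 and 0.666 CPM in the brain libraries (log2 fold change 11.70 ± 0.40 (SE), adjusted p = 2.45e-10). Sftpa1, the collagen-like surfactant protein A of innate defence, had 268 and 388 CPM in lung and 0 counts in both brain libraries, which makes it at least 1501-fold higher in lung. This bound and those below set the organ at 0 to a floor of 3 counts over its 2 libraries together. Sftpd and Lamp3, which encode surfactant protein D and a lamellar body membrane protein, were also at 0 in both brain libraries, with lung levels of 41.6 and 65.5 CPM and 43.4 and 57.9 CPM. Slc34a2, the phosphate transporter of type 2 cells, had 203 and 281 CPM in lung and 0.319 and 0.267 CPM in brain. The lipid transporter Abca3 was shared more evenly, with 254 and 279 CPM in lung and 106 and 114 CPM in brain, and the 2 members higher in brain were the fatty acid synthase gene Fasn (215 and 251 CPM in lung, 414 and 450.5 CPM in brain) and the transcription factor gene Etv5, whose call was lost without the first lung or either brain library. In every lung library the surfactant genes exceeded every brain library, without overlap.

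Type 1 and airway secretory cells gave the same picture with more exceptions. Among 14 genes of the type 1 cell, 10 were higher in lung, 2 in brain and 2 did not pass. Of all genes tested, 34.6% were higher in lung and 37.4% in brain. Ager, the receptor for advanced glycation end products and the classical type 1 marker, had 76.4 and 89.9 CPM in lung and 0 and 0.133 CPM in brain (log2 fold change 10.09 ± 0.47 (SE), adjusted p = 1.55e-09). Cldn18, the lung tight junction claudin, had 60.2 and 70.2 CPM in lung and 0 counts in both brain libraries, at least 299-fold higher in lung. Spock2, a proteoglycan gene used as a type 1 marker in lung and as a barrier marker in brain, ran the other way, with 83.9 and 92.5 CPM in lung and 529.7 and 649.7 CPM in brain (log2 fold change -2.57 ± 0.17 (SE), adjusted p = 3.59e-08). Of 11 tested genes of club and secretory cells, 9 were higher in lung and none in brain. Scgb1a1, the secretoglobin of club cells, had 678 and 573 CPM in lung and 0.16 and 0 CPM in brain (log2 fold change 13.00 ± 0.38 (SE), adjusted p = 5.76e-11), and Cyp2f2, the club cell cytochrome P450 that bioactivates naphthalene, had 53.8 and 58.9 CPM in lung and 0.16 and 0 CPM in brain. All 17 tested genes of epithelial junctions and keratins were higher in lung, among them Cdh1, which encodes E-cadherin, with 69.9 and 67.5 CPM in lung and 2.87 and 5.46 CPM in brain. In the fit over all 30 libraries 9 type 2 genes, 7 type 1 genes, 4 secretory genes and 4 junction and keratin genes stayed higher in lung, and the calls of Fasn, Spock2 and Cdh1 were lost.

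Motile cilia are built by airway cells in the lung and by ependymal cells in the brain ventricles, and their genes mostly did not separate the organs. Of 17 tested genes, 12 did not pass, 4 were higher in brain and 1 in lung, against 72% of all genes called. Foxj1, the master regulator of motile ciliogenesis, had 16.7 and 20.5 CPM in lung and 13.2 and 26.2 CPM in brain, with overlapping libraries and a log2 fold change of 0.07. The outer arm dynein gene Dnah5 had 19.5 and 29.5 CPM in lung and 21.5 and 35.7 CPM in brain. The radial spoke gene Rsph1 was higher in brain, with 16.9 and 17.7 CPM in lung against 41.5 and 60.9 CPM in brain (log2 fold change -1.39 ± 0.20 (SE), adjusted p = 4.46e-05). Tppp3, a tubulin polymerisation promoting gene, was the member higher in lung, with 127 and 129 CPM against 25.7 and 42.8 CPM. The edgeR fit over all 30 libraries called 0 of the 18 cilia genes it tested, with 1 at an unadjusted p under 0.05, while on the 7 tumour-free libraries DESeq2 called 4 and limma-voom 5.

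Neuronal transcripts were among the most abundant in the brain libraries and near 0 in the lung libraries. All 18 pan-neuronal genes were higher in brain, with a median log2 fold change of -7.57, and their summed level was 5513 and 4567 CPM in brain against 81.2 and 73.8 CPM in lung. Snap25, a SNARE protein of the synaptic vesicle fusion machinery, had 0 and 0.186 CPM in lung and 1404 and 1012 CPM in brain (log2 fold change -13.34 ± 0.39 (SE), adjusted p = 5.76e-11). Rbfox3, which encodes the nuclear marker NeuN, had 3.23 and 2.7 CPM in lung and 196 and 220.4 CPM in brain, a 70.2-fold higher mean in brain. The neurofilament genes Nefl, Nefm and Nefh and the internexin gene Ina followed, and Ina had 0 counts in both lung libraries against 162 and 154 CPM in brain, at least 1150-fold higher in brain. Stmn2, a microtubule regulator of growing axons, was the exception in size: it still had 48.9 and 43.2 CPM in lung against 202 and 181 CPM in brain. Since these are RNA levels of a sorted mixture, fewer cells of a type and less RNA per cell cannot be told apart, here and for every cell type below.

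Each step of synaptic transmission was represented. All 20 genes of vesicle release were higher in brain, as were all 17 genes of glutamate neurons and receptors and all 20 genes of GABA neurons and receptors, and no member of these lists was higher in lung. Cplx2, which encodes the fusion clamp complexin 2, had 12.1 and 16.3 CPM in lung and 1592 and 1449 CPM in brain (log2 fold change -6.57 ± 0.20 (SE), adjusted p = 5.9e-11), and the active zone scaffold gene Bsn had 10.4 and 7.44 CPM and 1343 and 1274 CPM. Slc17a7, the vesicular transporter that loads glutamate, had 1.07 and 1.12 CPM in lung and 382 and 332 CPM in brain. The receptor subunit genes Grin2b (NMDA type) and Gria2 (AMPA type) had 1038 and 745 CPM and 536 and 396 CPM in brain, and neither reached 1 CPM in a lung library. Grm5, a metabotropic glutamate receptor, had 0 counts in both lung libraries and 211 and 131 CPM in brain, at least 1221-fold higher in brain. On the inhibitory side, Gad1 and Gad2, which make GABA from glutamate, had 253 and 167 CPM and 222 and 138 CPM in brain against 0 and 0.372 CPM and 0 and 0.093 CPM in lung. Slc6a11, a GABA transporter found on astrocytes, had the largest fitted difference on the brain side among protein-coding genes that reached 10 CPM: 0 counts in lung and 287 and 460.2 CPM in brain, at least 2786-fold higher. The first brain library exceeded the second for Snap25, Gad1, Gad2, Grin2b and Grm5, while the second exceeded the first for the glial genes Mobp, Gfap and S100b described next. These shifts between the 2 brain libraries were small beside the distance to lung.

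The next largest brain-side differences under the same limits, beside Grm5 and Ina, belonged to 9 genes with 0 counts in both lung libraries. They were Snap91 (320.5 and 248 CPM in brain), which encodes a clathrin assembly protein of synaptic vesicle recycling, the large receptor gene Lrp1b (295 and 255 CPM), the acyl-CoA synthetase gene Acsl6 (243 and 251 CPM) and the adhesion receptor gene Adgrb3 (234 and 208 CPM). Zic1, a zinc finger factor of the dorsal brain and meninges, had 217 and 202 CPM in brain, Sncb, which encodes beta-synuclein, 182 and 184 CPM, and Csmd3, a gene of large size with CUB and sushi domains, 179.9 and 154 CPM. Caln1, a neuronal calcium-binding protein gene, and Gpr158, an orphan receptor gene, had 168 and 162 CPM and 173 and 134 CPM. The lower bounds of these 9 genes ran from 1110-fold (Gpr158) to 2053-fold (Snap91).

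Astrocytes and oligodendrocytes were the second large component of the brain libraries. Of 19 astrocyte genes, 18 were higher in brain and 1 did not pass. The member that did not pass was the growth factor receptor gene Fgfr3, with 126 and 159.9 CPM in lung and 136 and 192 CPM in brain. Slc1a2, which encodes the glutamate transporter GLT-1, had 4455 and 4119 CPM in brain against 10.4 and 10.1 CPM in lung (log2 fold change -8.53 ± 0.20 (SE), adjusted p = 3.9e-11). Aqp4, the water channel of astrocyte end-feet, had 239 and 257 CPM in brain and 0.538 and 0.837 CPM in lung, and the intermediate filament gene Gfap had 247 and 327 CPM and 0.0896 and 0.279 CPM. Apoe, the lipoprotein of astrocyte lipid transport, was present in both organs, with 1110 and 1471 CPM in brain and 354 and 439 CPM in lung, without overlap (log2 fold change -1.53 ± 0.22 (SE), adjusted p = 4.44e-05). Of 20 genes of oligodendrocytes and myelin, 18 were higher in brain, 1 in lung and 1 did not pass. Mobp, a structural gene of compact myelin, had 2495 and 4451 CPM in brain and 0.448 and 0.837 CPM in lung. Mog, which is made late in the maturation of oligodendrocytes, was far lower, with 6.22 and 8.66 CPM in brain and 0 counts in both lung libraries. The member higher in lung was the transferrin gene Trf (64.5 and 43.2 CPM in lung, 16.1 and 21.9 CPM in brain), and the myelin regulatory factor gene Myrf did not pass, with 84.7 and 50.2 CPM in lung and 67.5 and 91.8 CPM in brain. In the fit over all 30 libraries 13 of the astrocyte genes and 13 of the oligodendrocyte genes stayed higher in brain, and the calls of Aqp4, Apoe and Trf were lost.

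The precursor, choroid plexus and meningeal lists were more mixed, with members called on both sides. Of 12 precursor genes 7 were higher in brain and 4 in lung, against 37.4% and 34.6% of all genes tested. Bcas1, a marker of newly formed oligodendrocytes, had 625 and 1161 CPM in brain and 1.17 and 1.3 CPM in lung, whereas Pdgfra, the receptor shared by precursors and fibroblasts, was higher in lung, with 128 and 177 CPM against 52.3 and 50.6 CPM. The choroid plexus, which secretes cerebrospinal fluid, was marked by the thyroxine carrier gene Ttr, with 330.1 and 703 CPM in brain and 0 and 0.093 CPM in lung (log2 fold change -12.96 ± 0.66 (SE), adjusted p = 1.12e-07). The second brain library was the higher for Ttr and also for the plexus gene Enpp2, which had 373 and 605 CPM in brain and 66.8 and 71 CPM in lung. Of 12 plexus genes, 8 were higher in brain and 2 in lung, the latter being the water channel gene Aqp1 and the coagulation factor gene F5. Among 12 genes of meningeal fibroblasts, 10 were higher in brain. Ptgds, the prostaglandin D synthase of the meninges, had 138 and 124 CPM in brain and 0.358 and 0.186 CPM in lung, and Igf2 had 110.4 and 148 CPM and 7.97 and 8.84 CPM. The fit over all 30 libraries kept 3 precursor genes, 2 plexus genes and 5 meningeal genes on the brain side, and the calls of Pdgfra, F5 and Enpp2 were lost.

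Blood vessels were the clearest stromal difference, with endothelial transcripts much higher in the lung libraries. All 19 tested pan-endothelial genes were higher in lung, with a median log2 fold change of 4.72, and their summed level was 10073 and 11979 CPM in lung against 451 and 664 CPM in brain. Cdh5, which encodes VE-cadherin of endothelial junctions, had 1806 and 2049 CPM in lung and 21.9 and 34.1 CPM in brain, a 68.9-fold higher mean in lung (log2 fold change 6.27 ± 0.24 (SE), adjusted p = 2.6e-10). Pecam1 (CD31) had 1189 and 1395 CPM and 26.6 and 41.8 CPM, the VEGF receptor gene Kdr 964 and 1148 CPM and 26.5 and 36.2 CPM, and the von Willebrand factor gene Vwf 1129 and 1260 CPM and 42.4 and 56.2 CPM, each in lung and brain. Flt1, a second VEGF receptor, had the smallest difference of the list, with 631 and 758 CPM in lung and 147 and 220.5 CPM in brain (log2 fold change 2.09). All 17 tested genes of lung capillaries were higher in lung as well. The calcitonin receptor-like gene Calcrl had 1498 and 1510 CPM and the diaphragm protein gene Plvap of fenestrated vessels 696 and 986 CPM in lung, against 10.7 and 10.3 CPM and 7.5 and 5.86 CPM in brain. Car4, the carbonic anhydrase of the aerocyte, the large capillary cell of gas exchange, had 185 and 225 CPM in lung and 17.2 and 31.1 CPM in brain. Gpihbp1, which holds lipoprotein lipase on the capillary wall, had 0 counts in both brain libraries and 88.3 and 121 CPM in lung, at least 479-fold higher. Epas1, the hypoxia-inducible factor of endothelium, stood among the 8 genes with the highest level per kilobase on the lung side, with 5873 and 6778 CPM in lung and 301 and 387 CPM in brain. Of the genes of these lists described here, Flt1 and Car4 lost their call in the fit over all 30 libraries.

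Barrier genes of brain endothelium were read against this low endothelial level. Of 21 tested genes, 12 were higher in brain, 4 in lung and 5 did not pass. Among all genes tested, 37.4% were higher in brain and 34.6% in lung. Slc2a1, the glucose transporter of barrier endothelium, did not separate the organs, with 84.2 and 75 CPM in lung and 75.1 and 128 CPM in brain, and neither did the efflux pump gene Abcb1a (43.8 and 47.1 CPM and 44.5 and 65.8 CPM). On the brain side stood the organic anion transporter gene Slc22a8, with 0.0896 and 0 CPM in lung and 20.2 and 24.8 CPM in brain. Slco1a4, another organic anion transporter of the barrier, had 0.179 and 0.558 CPM in lung and 67.3 and 91.7 CPM in brain. On the lung side stood Pltp, the phospholipid transfer protein, with 712 and 729 CPM against 52.6 and 94.7 CPM, and the endothelial factor gene Sox17, with 84.7 and 68.3 CPM against 8.61 and 12.7 CPM. Cldn5, the main claudin of endothelial junctions, had 0 counts in all 30 libraries, so nothing can be said about it. The fit over all 30 libraries kept 5 barrier genes on the brain side and 1 on the lung side, without Sox17.

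Fibroblasts and their matrix were also higher in the lung libraries. All 19 genes of fibroblasts and fibrillar collagens and all 15 genes of elastic fibres were higher in lung, with median log2 fold changes of 3.80 and 3.39. Col3a1, the collagen of distensible tissues, had 705 and 784 CPM in lung and 13.6 and 11.2 CPM in brain (log2 fold change 6.09 ± 0.36 (SE), adjusted p = 3.37e-08), and Col1a1 had 369 and 450.4 CPM and 20.6 and 26.5 CPM. Eln, which encodes the elastin that lets the lung recoil, had 115 and 168 CPM in lung and 4.94 and 7.86 CPM in brain, and the microfibril gene Fbn1 had 216 and 261 CPM and 20.2 and 30.5 CPM. Of 20 basement membrane genes, 18 were higher in lung and 1 in brain. The network collagen gene Col4a1 had 1272 and 1306 CPM in lung and 72.9 and 91.4 CPM in brain, while Agrn, which encodes the proteoglycan agrin, had 298 and 345 CPM and 217 and 258 CPM. Of 18 genes of alveolar fibroblasts, 15 were higher in lung and none in brain. Tcf21, their lineage factor, had 19 and 23.3 CPM in lung and 0 counts in both brain libraries, at least 97-fold higher. Inmt, an indolethylamine methyltransferase gene, had 203 and 323 CPM in lung and 0.478 and 0.267 CPM in brain. Wif1, an inhibitor of Wnt ligands, was at 0 counts in brain and at 40.8 and 56.9 CPM in lung. The fit over all 30 libraries kept 7 fibroblast genes, 9 elastic fibre genes and 7 basement membrane genes on the lung side, and the calls of Col1a1, Fbn1 and Agrn were lost.

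The brain matrix is built of lecticans, tenascin R and link proteins instead of fibrillar collagen, and most of its genes ran the other way. Of 14 genes, 10 were higher in brain, 3 in lung and 1 did not pass. Over all genes tested, 37.4% were higher in brain and 34.6% in lung. The lectican genes Ncan and Bcan had 265 and 252 CPM and 219.7 and 294 CPM in brain against 0.358 and 1.02 CPM and 8.96 and 6.79 CPM in lung. Versican, the lectican that fibroblasts also make (Vcan), was higher in lung, with 86.5 and 64.8 CPM against 52.3 and 49 CPM. Tnr had 222 and 205 CPM in brain and 0.986 and 0.837 CPM in lung (log2 fold change -7.68 ± 0.21 (SE), adjusted p = 5.51e-11), and the receptor phosphatase gene Ptprz1 of glia had 346 and 406 CPM and 3.85 and 3.16 CPM. Of these, Vcan lost its call in the fit over all 30 libraries.

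Mural cell genes were mostly higher in lung, with a few higher in brain. Of 19 genes of smooth muscle and pericytes, 11 were higher in lung, 3 in brain and 5 did not pass. Over all genes tested the shares were 34.6% in lung and 37.4% in brain. The contractile genes Acta2 and Myh11 had 74.2 and 106 CPM and 106 and 149.6 CPM in lung against 14.7 and 19.2 CPM and 31.4 and 47.3 CPM in brain. Rgs5, a regulator of G protein signalling that marks pericytes, was far higher in brain, with 243 and 266 CPM against 4.75 and 6.79 CPM (log2 fold change -5.29 ± 0.23 (SE), adjusted p = 1.04e-09). Notch3, the receptor of mural cells, did not separate the organs, with 69.8 and 88.5 CPM in lung and 58.8 and 104 CPM in brain. Mesothelium, the lining of the pleura, was marked in lung by Upk3b, with 26.8 and 27.9 CPM against 0.16 and 0 CPM, and 8 of 10 of its genes were higher in lung. In the 30-library fit these counts fell to 5 and 2 for mural genes and to 3 for mesothelium.

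Macrophages were abundant in the lung libraries, and the resident macrophage of each organ left its own mark. All 18 genes of the alveolar macrophage list were higher in lung, with the highest median log2 fold change on the lung side among the lists in the plot, 7.84. The list includes Flt1 and Car4, which were also counted among the endothelial genes above, so not every member marks macrophages alone. Chil3, the secreted chitinase-like protein Ym1, had 1261 and 601 CPM in lung and 1.59 and 0.533 CPM in brain (log2 fold change 9.99 ± 0.54 (SE), adjusted p = 4.62e-08). Marco, a scavenger receptor of airspace macrophages, had 159.8 and 63.8 CPM in lung and 0 and 0.133 CPM in brain. Ear2, an eosinophil-type ribonuclease gene that alveolar macrophages transcribe, had 0 counts in both brain libraries and 238 and 136 CPM in lung, at least 862-fold higher. The lung libraries differed between themselves here, and the first had the higher level of Mrc1, Itgax, Marco, Chil3, Ear2, Fabp1 and Krt79, a keratin gene on this list. Gpr141, an orphan receptor gene, and Ang5, an angiogenin family ribonuclease gene, had 0 counts in brain and 58.2 and 51.1 CPM and 63.6 and 26.6 CPM in lung, also at the head of all lung-side differences. For Krt79 (119 and 49.7 CPM in lung, 0 counts in brain) the call was lost when either lung library was left out.

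Microglia, the resident macrophages of the brain parenchyma, were found on the brain side with a smaller margin. Of 18 genes of homeostatic microglia, 10 were higher in brain, 5 in lung and 3 did not pass. The shares over all genes tested were 37.4% in brain and 34.6% in lung. P2ry12, the purinergic receptor of resting microglia, had 92.7 and 107 CPM in brain and 4.39 and 4.46 CPM in lung (log2 fold change -4.32 ± 0.22 (SE), adjusted p = 3.1e-09). Cx3cr1, the fractalkine receptor, had 166 and 224 CPM in brain and 64.2 and 59.1 CPM in lung, a 3.17-fold higher mean in brain. Tmem119, often used to tell microglia from other macrophages, differed by less, with 39.4 and 60.5 CPM in brain and 19.4 and 28.9 CPM in lung, and its call was lost without the first lung or the second brain library. Csf1r, the receptor on which macrophages depend, was higher in lung, with 717 and 715 CPM against 186 and 299.9 CPM. The complement gene C1qa, made by both microglia and tissue macrophages, did not separate the organs (72.2 and 73.9 CPM in lung, 57.9 and 90.2 CPM in brain). Without the first lung or the first brain library 3 microglial genes were called on the lung side, and the 30-library fit called 3 on the brain side and 0 on the lung side, where Cx3cr1, Tmem119 and Csf1r lost their calls.

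Genes common to all macrophages leaned to lung, with 15 of 18 higher there and none in brain. Lyz2, the lysozyme of myeloid cells, had the highest level per kilobase of exons of all genes called past 2-fold in lung, with 2560 CPM per kb in lung against 50.3 CPM per kb in brain. Its levels were 4008 and 2729 CPM in lung and 43.1 and 89.3 CPM in brain (log2 fold change 5.84 ± 0.36 (SE), adjusted p = 5.62e-08). Cd14, the co-receptor for bacterial endotoxin, had 2398 and 2141 CPM in lung and 9.89 and 20.6 CPM in brain, a 149-fold higher mean. Of 11 tested genes of the macrophages at brain borders, 10 were higher in lung, among them the hyaluronan receptor gene Lyve1 with 494 and 942 CPM against 1.59 and 1.2 CPM. Lyve1 is also made by lymphatic endothelium, and the mannose receptor gene Mrc1 of this list, with 556 and 320.5 CPM and 13.9 and 19.1 CPM, is also made by alveolar macrophages. The 30-library fit kept 11 alveolar macrophage, 7 pan-macrophage and 5 border macrophage genes on the lung side, and Chil3 and Krt79 lost their calls. Tmsb4x, an actin-binding peptide gene abundant in leukocytes, stood among the 8 genes with the highest level per kilobase on the lung side, with 1748 and 1509 CPM in lung and 249 and 252 CPM in brain.

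Other leukocytes followed the macrophages. Of 18 tested neutrophil genes, 15 were higher in lung and 3 did not pass. S100a9, the calprotectin subunit of neutrophil cytoplasm, had 558 and 537 CPM in lung and 6.22 and 9.19 CPM in brain (log2 fold change 6.31 ± 0.27 (SE), adjusted p = 7.08e-10). The primary granule gene Mpo, made by marrow progenitors and not by mature neutrophils, was at 0.358 and 0.279 CPM in lung and 0.16 and 0 CPM in brain. Of 16 genes of monocytes and dendritic cells, 15 were higher in lung and none in brain. Ace, the angiotensin converting enzyme that lung endothelium and patrolling monocytes make, had 2979 and 3327 CPM in lung and 26.5 and 38.2 CPM in brain. Treml4, a receptor of patrolling monocytes, had 115 and 114 CPM and 0.16 and 0.533 CPM. Of 11 tested lymphocyte genes, 9 were higher in lung and 1 in brain, and apart from Ptprc, described below, they were low in both organs. Il2rg, the receptor gene with the null allele, had 5.47 and 4.46 CPM in lung and 0.797 and 1.07 CPM in brain. Cd4 had 4.03 and 5.49 CPM and 3.51 and 1.87 CPM, and Ighm 8.15 and 5.02 CPM and 3.67 and 4 CPM. Deletion of part of a gene need not remove its counts, so Il2rg checks nothing about the strain. Ptprc, which encodes CD45 of all leukocytes, had 879 and 742 CPM in lung and 22 and 31.9 CPM in brain, a 30.1-fold higher mean. The beta globin gene Hbb-bs, a trace of red blood cells, had 31.5 and 34.1 CPM in lung and 47.5 and 162 CPM in brain, with the second brain library highest, and did not pass. In the 30-library fit the calls came to 2 for neutrophils, 1 for lymphocytes and 11 for monocytes and dendritic cells, and S100a9 and Il2rg lost theirs. The calls of Cd4 and Ighm were also lost when 1 library was left out, Cd4 without the second lung or second brain library and Ighm without the first lung or either brain library.

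Antigen presentation was one of the most uniform differences between the organs. MHC class I molecules display peptides of the cell's own proteins to cytotoxic T cells, and the interferon response raises both them and a set of antiviral genes. All 16 tested genes of the class I pathway were higher in lung, with a median log2 fold change of 4.77, and all 16 were also called by the fit over 30 libraries. B2m, the invariant light chain, had 1182 and 1213 CPM in lung and 42.4 and 65.3 CPM in brain (log2 fold change 4.64 ± 0.21 (SE), adjusted p = 1.01e-09), and the heavy chain gene H2-D1 had 644 and 644 CPM and 10.4 and 15.6 CPM. Heavy chain genes are near-identical copies whose reads the counting may have split, so their single levels are uncertain. Nlrc5, the transactivator of class I genes, had 96.6 and 115 CPM in lung and 4.94 and 4.8 CPM in brain. All 6 tested class II genes were higher in lung too. The invariant chain gene Cd74 had 2040 and 1503 CPM and 8.29 and 19.1 CPM, and the beta chain gene H2-Eb1 had 62.5 and 51.1 CPM in lung and 0 counts in both brain libraries, at least 261-fold higher. All 22 interferon response genes were higher in lung, with a median log2 fold change of 4.00, against 34.6% of all genes tested. Irf7, a transcription factor that amplifies type I interferon, had 119.7 and 139.8 CPM in lung and 4.62 and 5.6 CPM in brain (log2 fold change 4.83 ± 0.17 (SE), adjusted p = 1.82e-10), and Ifitm3, which blocks viral entry, had 444 and 494 CPM and 6.54 and 15.5 CPM. Ifit2 had the smallest difference of the list, with 19 and 21.6 CPM in lung and 15.2 and 16.1 CPM in brain, and its call was lost without the second lung or either brain library. The 30-library fit called 12 of the interferon response genes and 4 of the class II genes.

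Promoters of these genes were examined because interferon-activated factors bind a known element, the interferon-stimulated response element, whose core was searched as GAAA, any 2 bases and GAAA, or as the reverse complement, TTTC, any 2 bases and TTTC. In RefSeq promoters of the GRCm38.p6 build, in the 250 bases before the gene start and on both strands, the core stood in 11 of 17 interferon response genes with an entry (64.7%), in 3 of 15 class I genes (20%), in 0 of 6 class II genes and in 936 of all 27025 genes (3.46%). They are printed for 4 genes, with each match in capitals and overlapping matches joined: Isg15 (chr4:156200819-156201068, minus strand), Ifit3 (chr19:34583279-34583528, plus strand), Rsad2 (chr12:26456453-26456702, minus strand) and B2m (chr2:122147437-122147686, plus strand). Each runs 5′ to 3′ toward the gene start.
Isg15: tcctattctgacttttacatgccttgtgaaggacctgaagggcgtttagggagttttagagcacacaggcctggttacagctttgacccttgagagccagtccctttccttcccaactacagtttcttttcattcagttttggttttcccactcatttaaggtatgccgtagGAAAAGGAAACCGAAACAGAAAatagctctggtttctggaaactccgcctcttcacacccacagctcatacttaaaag
Ifit3: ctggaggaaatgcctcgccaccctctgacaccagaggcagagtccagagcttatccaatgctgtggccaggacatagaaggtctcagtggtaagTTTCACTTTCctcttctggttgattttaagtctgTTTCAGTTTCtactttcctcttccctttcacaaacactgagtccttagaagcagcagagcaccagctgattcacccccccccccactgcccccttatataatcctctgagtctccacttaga
Rsad2: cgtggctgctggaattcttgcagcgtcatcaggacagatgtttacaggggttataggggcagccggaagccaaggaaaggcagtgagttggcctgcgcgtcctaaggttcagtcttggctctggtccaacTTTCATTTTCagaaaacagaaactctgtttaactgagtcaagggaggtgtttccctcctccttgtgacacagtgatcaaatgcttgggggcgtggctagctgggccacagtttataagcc
B2m: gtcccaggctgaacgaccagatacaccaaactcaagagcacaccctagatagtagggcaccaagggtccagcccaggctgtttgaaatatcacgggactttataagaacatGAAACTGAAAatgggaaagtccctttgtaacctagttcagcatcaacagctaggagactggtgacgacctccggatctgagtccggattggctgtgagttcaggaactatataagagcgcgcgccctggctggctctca

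The 4 promoters differ in number and place of the element. Isg15, a ubiquitin-like modifier, has 3 overlapping matches that form 1 run, and the last match begins 66 bases before the gene start. Ifit3, an RNA-binding antiviral protein, has 2 separate matches, and Rsad2, the antiviral enzyme viperin, and B2m have 1 each. Isg15 had 51.7 and 59.7 CPM in lung and 1.75 and 2.93 CPM in brain (log2 fold change 4.71 ± 0.23 (SE), adjusted p = 2.02e-09), Ifit3 27.8 and 41.2 CPM and 7.33 and 8.66 CPM (log2 fold change 2.27 ± 0.22 (SE), adjusted p = 1.09e-06), and Rsad2 42.2 and 55.3 CPM and 3.35 and 9.06 CPM (log2 fold change 3.10 ± 0.30 (SE), adjusted p = 2.74e-06). A match is a description of the sequence and not a measured binding site. Among lists higher in brain, 2 of 16 vesicle release genes and 0 of 10 pan-neuronal genes with an entry held the letters. In the fit over all 30 libraries Ifit3 and Rsad2 lost their calls, while Isg15 and B2m did not.

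Inflammatory mediators and their sensors were higher in lung with few exceptions. Of 25 tested chemokine and cytokine genes, 21 were higher in lung and 2 in brain. The background for the lists of this paragraph was 34.6% of all genes tested higher in lung and 37.4% in brain. Cxcl2, which attracts neutrophils, had 1038 and 900.1 CPM in lung and 0.638 and 3.33 CPM in brain (log2 fold change 9.03 ± 0.62 (SE), adjusted p = 2.13e-06), and the interleukin gene Il1b had 681 and 555 CPM and 3.51 and 12.7 CPM. Cxcl12, the ligand of CXCR4, was nearer, with 346 and 249 CPM in lung and 91.2 and 117 CPM in brain, and the fractalkine gene Cx3cl1 did not pass, with 96.5 and 152 CPM and 157 and 129.7 CPM. The 2 brain-side members were the alarmin gene Il33 (49.3 and 46.9 CPM in brain, 11.1 and 14.5 CPM in lung) and Il34, the second ligand of the CSF1 receptor (16.6 and 16.7 CPM and 2.6 and 3.44 CPM). Of 15 tested complement genes 11 were higher in lung and none in brain, with C3 at 655 and 667 CPM in lung and 4.62 and 7.46 CPM in brain and the anaphylatoxin receptor gene C5ar1 at 369.8 and 331 CPM and 2.55 and 4.8 CPM. Of 21 tested innate sensors 20 were higher in lung. Tlr2, which senses bacterial lipoproteins, had 614 and 467 CPM in lung and 8.61 and 18.3 CPM in brain, and the inflammasome gene Nlrp3 had 602 and 505 CPM and 6.38 and 16.9 CPM. The molecules by which circulating cells hold on to vessels were counted separately: 17 of 18 tested genes were higher in lung and none in brain. Icam1, a ligand of leukocyte integrins, had 503 and 572 CPM in lung and 3.51 and 10.9 CPM in brain, and Cd44, a hyaluronan receptor, had 1483 and 1142 CPM and 11.6 and 11.9 CPM. The 30-library fit kept 11 chemokine and cytokine, 6 complement, 13 sensor and 11 adhesion genes on the lung side, and Cxcl12, Il33 and Il34 lost their calls.

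Growth factor ligands were called in each direction about as often as genes at large. Of 30 tested ligands, 13 were higher in lung, 12 in brain and 5 did not pass, with a median log2 fold change of 0.14, and of all genes tested 34.6% were higher in lung and 37.4% in brain. The lung libraries led in the angiogenic ligand Vegfa (463 and 458 CPM in lung, 90.4 and 99.4 CPM in brain), the platelet-derived factor Pdgfb (195 and 194 CPM, 29 and 41 CPM), the hepatocyte growth factor Hgf (40.3 and 54.7 CPM, 5.1 and 4.8 CPM), the EGF receptor ligand Areg (11.5 and 12.2 CPM, 0 and 0.133 CPM) and Kitl, the ligand of KIT (219.9 and 249.8 CPM, 63.6 and 58.8 CPM). The brain libraries led in Igf2 and in another EGF receptor ligand, Tgfa (47.8 and 52.9 CPM in brain, 4.39 and 4.46 CPM in lung), in the ERBB4 ligand Nrg3 (62 and 57.3 CPM, 0 counts in lung), in Vegfb (53.4 and 57.4 CPM, 13 and 13.4 CPM) and in the intracellular factors Fgf12, Fgf13 and Fgf14 of neurons, of which Fgf12 had 133 and 80.8 CPM in brain and 0.0896 and 0.186 CPM in lung. Fgf1 did not separate the organs, with 112 and 129 CPM in lung and 123 and 135 CPM in brain. Of 27 tested genes of TGF-beta and BMP signalling, 18 were higher in lung and 4 in brain. Tgfbr2, the receptor that binds TGF-beta first, had 384 and 333 CPM in lung and 41.6 and 61.4 CPM in brain (log2 fold change 2.97 ± 0.18 (SE), adjusted p = 1.67e-08), and the inhibitory SMAD gene Smad6 had 279.5 and 382 CPM and 3.83 and 5.06 CPM. The brain-side members were the ligand Bmp7, the antagonists Chrd and Grem1 and the inhibitor of differentiation Id4, with Chrd at 26.6 and 32.6 CPM in brain and 2.69 and 3.16 CPM in lung. The 30-library fit kept 6 and 7 ligands and 11 and 1 TGF-beta and BMP genes on the lung and brain side, and Kitl, Chrd, Bmp7 and Grem1 lost their calls.

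Matrix proteases and their inhibitors leaned to lung, with members on both sides. Of 28 genes, 19 were higher in lung, 8 in brain and 1 did not pass, against 34.6% of all genes tested higher in lung and 37.4% in brain, and the median log2 fold change was 2.12. The lysosomal protease gene Ctsd had 2199 and 1223 CPM in lung and 232 and 427 CPM in brain, and Adamts1, which cleaves lecticans, 570.5 and 622 CPM and 44.8 and 79.2 CPM. Mmp9, the gelatinase of neutrophils, had 107 and 121 CPM in lung and 1.91 and 3.73 CPM in brain, while the membrane-bound protease gene Mmp24 had 77.8 and 93.8 CPM in brain and 2.24 and 1.95 CPM in lung. Of the inhibitors, Timp3 was higher in lung (296 and 424 CPM, 98.5 and 108 CPM) and Timp4 in brain (0.717 and 0.93 CPM, 36.7 and 45.8 CPM). The 30-library fit kept 9 and 7 members on the lung and brain side, without Timp3.

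Transcription factors of organ development were divided by organ. Of 22 tested lung regulators, 20 were higher in lung. Foxf1, a mesenchymal and endothelial factor, had 214 and 359 CPM in lung and 1.44 and 2.53 CPM in brain (log2 fold change 7.30 ± 0.43 (SE), adjusted p = 1.85e-07), the T-box genes Tbx2 and Tbx3 had 195 and 222 CPM and 265 and 279 CPM in lung against 5.1 and 8.66 CPM and 7.81 and 11.6 CPM in brain, and Tbx5 had 8.6 and 15.3 CPM and 0 counts in brain. Nkx2-1, the factor of lung epithelium that the forebrain and thyroid also use, had 11.9 and 17.7 CPM in lung and 2.39 and 1.47 CPM in brain. Foxp2, which both organs use, was the member higher in brain, with 32.7 and 18.7 CPM against 1.07 and 2.79 CPM. Of 29 tested brain regulators, 28 were higher in brain. The POU factor gene Pou3f3 had 138 and 120.2 CPM in brain and 0 counts in lung, and Olig1, which oligodendrocytes need, 71.9 and 83 CPM and 0 counts. Nfib, which both organs use, was the exception, with 353 and 445 CPM in lung and 298 and 284 CPM in brain. Hox genes record position along the hindbrain and trunk and are not used in the forebrain. Of 39 Hox genes 15 could be tested, and 11 were higher in lung, each past 2-fold, with none higher in brain. Of these, Hoxa2 to Hoxa5 and Hoxb2 to Hoxb6 are also on the list of lung regulators, so the count for that list includes them. They were 5 genes of the Hoxa cluster and 6 of the Hoxb cluster, and none of the 3 tested Hoxd genes was called. The 9 Hoxc genes were too low to be tested and summed to 0 and 0.093 CPM in lung and 1.28 and 0.533 CPM in brain. The sum over all Hox genes was 87.7 and 96.2 CPM in lung against 8.29 and 3.20 CPM in brain, and Hoxa5, needed for lung maturation, had 33.1 and 37.4 CPM and 1.59 and 0.133 CPM. The 30-library fit kept 10 lung regulators and 18 brain regulators, and the calls of Nkx2-1, Hoxa5, Foxp2 and Nfib were among those lost.

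Several gene families showed a mirror pattern, in which one paralog was high in lung and another in brain, as the plot of gene families shows. Among water channels, Aqp1 of endothelium had 999.8 and 1010 CPM in lung and 6.22 and 3.6 CPM in brain (log2 fold change 7.87 ± 0.24 (SE), adjusted p = 6.69e-11), and Aqp4 had 0.538 and 0.837 CPM and 239 and 257 CPM. Per kilobase of exons, Aqp1 stood at 382 CPM per kb in lung and Aqp4 at 39.8 CPM per kb in brain. Of the beta subunits of the sodium pump, Atp1b3 was higher in lung (239 and 249.9 CPM, against 90.6 and 98.9 CPM) and Atp1b2 of astrocytes was higher in brain (447 and 648 CPM, against 10.3 and 12.9 CPM). Of the connexins, which form gap junctions, the endothelial members Gja4 and Gja5 were higher in lung, with Gja4 at 58.3 and 45.8 CPM and 2.55 and 4.26 CPM, and the glial members Gja1, Gjb6 and Gjc3 were higher in brain, with Gja1 at 24 and 32.8 CPM and 263 and 321 CPM. Of the claudins, Cldn18 marked lung and Cldn11, the claudin of myelin, marked brain, with 53.9 and 76.1 CPM against 0.627 and 0.186 CPM. Vim, the filament of mesenchymal, endothelial and immune cells, had 2295 and 1865 CPM in lung and 52.9 and 77.8 CPM in brain, opposite to Gfap and the neurofilaments. Of 21 annexin and S100 genes, 20 were higher in lung, and S100b of astrocytes was the single member higher in brain, with 299.5 and 452 CPM against 0.896 and 1.4 CPM. Fabp4, the fatty acid carrier of capillaries and macrophages, had 116 and 97.5 CPM in lung and 0.478 and 0 CPM in brain, and Fabp7 of radial and mature glia 0.896 and 0.093 CPM and 35.9 and 22.1 CPM. Sox7, Sox17 and Sox18 of endothelium were higher in lung, and Sox1, Sox2, Sox9 and Sox10 of the neural lineages were higher in brain, with Sox7 at 188 and 186 CPM and 3.51 and 5.73 CPM and Sox2 at 1.7 and 1.49 CPM and 46.2 and 47.6 CPM. Kinases and calcium sensors lay mostly on the brain side, with 20 of 22 higher in brain. Camk2a, the kinase of synaptic plasticity, had 2552 and 2107 CPM in brain and 1.43 and 1.67 CPM in lung, and the member higher in lung was Prkcd (275 and 242 CPM, 49.9 and 65.4 CPM). None of the members named in these families was called in the other direction by any alternative. In the 30-library fit the calls came to 1 and 0 for aquaporins, 2 and 1 for claudins, 2 and 5 for connexins, 11 and 1 for annexins and S100 proteins and 1 and 14 for kinases, on the lung and brain side.

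**Figure D3:**
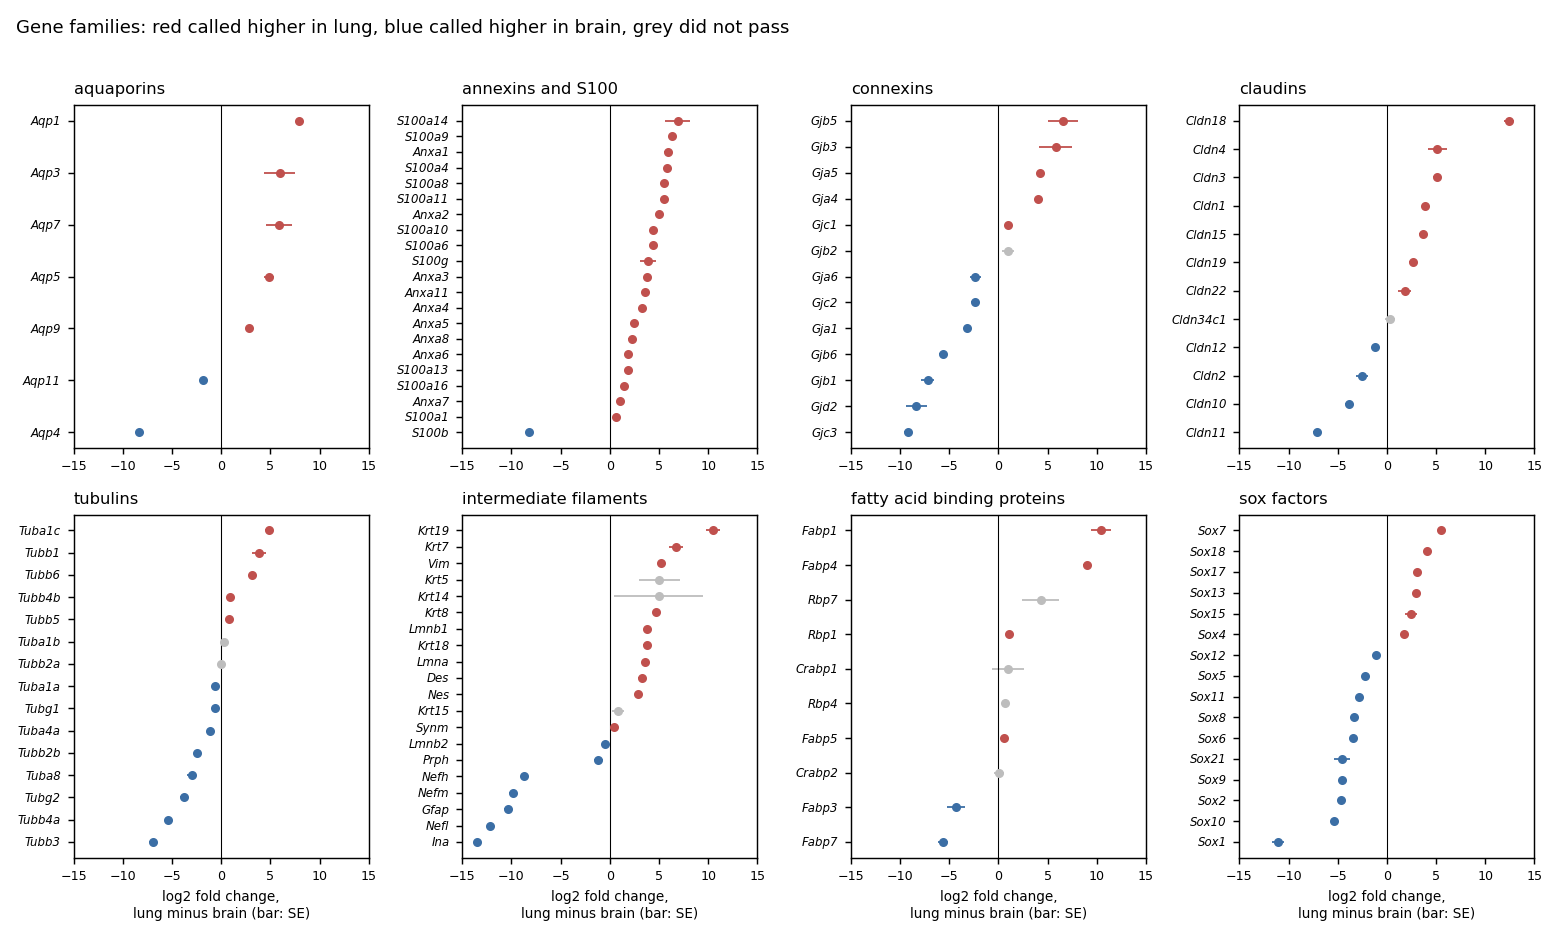
Log2 fold change (lung minus brain, x axis) of each tested member of 8 gene families, as edgeR fitted it, with bars of 1 standard error. Red members were called higher in lung, blue members higher in brain and grey members did not pass. Aqp1 at 7.87 and Aqp4 at -8.30 lie at opposite ends, and each of the 8 families has called members on both sides.

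Mitochondrial transcripts were the most abundant class on the brain side. The mitochondrially encoded genes took 5.16% and 4.71% of all counts in brain against 0.430% and 0.451% in lung, and all 9 tested were higher in brain, with a median log2 fold change of -3.92. mt-Nd1, a complex I subunit, had 10889 and 9070 CPM in brain and 582 and 591 CPM in lung (log2 fold change -3.92 ± 0.18 (SE), adjusted p = 1.33e-09), and mt-Co1, of complex IV, 13254 and 12900 CPM and 1571 and 1607 CPM. The remaining 6 protein genes of the mitochondrial genome on the list (mt-Nd3, mt-Nd4l, mt-Co2, mt-Co3, mt-Atp6 and mt-Atp8) had 0 counts in all 30 libraries, so the share covers the counted genes alone. Nuclear genes of oxidative phosphorylation moved far less: 17 of 26 were higher in brain and 1 in lung, with a median log2 fold change of -0.54. The shares over all genes tested were 37.4% in brain and 34.6% in lung. Cox4i1 had 287 and 361 CPM in brain and 128 and 128 CPM in lung, and Atp5b 529 and 518 CPM and 373 and 355 CPM. Mitochondrial share is also a common measure of damaged cells, and its part in the other differences was not tested. Leaving out all mitochondrially encoded genes and the 5 most abundant genes of any kind, 41 genes together, before scaling gave 13573 called genes. Genes of cytosolic ribosomal proteins leaned to lung by small amounts, with 22 of 26 higher there and a median log2 fold change of 0.69. The 30-library fit called 3 of the nuclear oxidative genes and 2 of the ribosomal genes, and Cox4i1 and Atp5b were not among them. The call of Atp5b was also lost without either lung or the first brain library. Cdr1 stood among the 8 genes with the highest level per kilobase on the brain side (7555 and 8351 CPM in brain, 0.806 and 1.86 CPM in lung), but the circular RNA Cdr1as is transcribed from the opposite strand of the same locus, and without a stated strand setting the reads of the 2 cannot be told apart.

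Genes of central metabolism were called in both directions. Of 22 glycolytic genes, 8 were higher in brain, 5 in lung and 9 did not pass, with a median log2 fold change of -0.06, that of all genes tested. The background for the lists of this paragraph was 37.4% of all genes tested higher in brain and 34.6% higher in lung. Aldoc and Eno2, the neural isoforms of aldolase and enolase, had 489 and 598 CPM and 482 and 400.3 CPM in brain against 16.8 and 10.4 CPM and 6.18 and 8.37 CPM in lung (Aldoc: log2 fold change -5.14 ± 0.24 (SE), adjusted p = 3.47e-09). Their widely used isoforms Aldoa (441 and 355 CPM in lung, 424 and 399.9 CPM in brain) and Pkm of pyruvate kinase (474 and 405 CPM, 452 and 449 CPM) did not pass. The lactate exporter gene Slc16a3 was higher in lung, with 339 and 290.3 CPM against 4.31 and 6.93 CPM. In lipid synthesis, Scd2, the desaturase isoform of the brain, had 1919 and 2175 CPM in brain and 178 and 229 CPM in lung, and Scd1 was also higher in brain, with 565 and 759.8 CPM and 230.0 and 330.2 CPM. Of 21 genes of cholesterol synthesis and its control, 8 were higher in brain and 6 in lung. Hmgcs1, which starts the pathway, had 169 and 155 CPM in brain and 68.2 and 60.6 CPM in lung, and Srebf2, its transcription factor, did not pass. The brain-side count fell to 4 without the second lung or the second brain library. Of 23 tested genes of xenobiotic metabolism, 18 were higher in lung, with the monooxygenase genes Fmo1 at 513 and 679.8 CPM against 10.2 and 10.8 CPM and Cyp4b1 at 344 and 502 CPM against 0.478 and 0.267 CPM. The exceptions on the brain side included Cyp46a1, which turns cholesterol over in neurons, with 53.6 and 45 CPM in brain and 0 and 0.279 CPM in lung. In the 30-library fit the brain and lung counts came to 4 and 1 for glycolysis, 0 and 1 for cholesterol synthesis and 2 and 12 for xenobiotic metabolism, and Fasn, Scd1 and Hmgcs1 lost their calls.

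Immediate early genes, which respond within minutes to stimuli and to tissue dissociation, were far higher in lung. Of 20 tested genes 19 were higher in lung, each past 2-fold, and their summed level was 15810 and 16316 CPM in lung against 923 and 1841 CPM in brain. Fos had 1408 and 1423 CPM in lung and 67.5 and 207 CPM in brain (log2 fold change 3.54 ± 0.44 (SE), adjusted p = 7.34e-05), the phosphatase gene Dusp1 2128 and 2067 CPM and 45.6 and 111 CPM, and Junb 1477 and 1534 CPM and 55.8 and 118 CPM. The second brain library was above the first for each of these 3 genes and remained far below both lung libraries. The exception was Egr3, with 24.5 and 28.2 CPM in lung and 26.8 and 23.7 CPM in brain. Il1b, Cxcl2 and Nlrp3 above are themselves inducible in macrophages, and the part of dissociation in the difference between the organs was not tested. Of 19 cell cycle genes 14 were higher in lung at low levels, against 34.6% of all genes tested. The proliferation marker Mki67 had 54.7 and 44.1 CPM in lung and 7.33 and 5.46 CPM in brain. The replication clamp gene Pcna had 45.7 and 48.8 CPM and 7.5 and 7.46 CPM. The 30-library fit kept 1 of the 14, not Mki67.

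Against this background of large differences, a few abundant genes lay close to 1-fold. Among protein-coding genes of at least 100 CPM the smallest fitted differences were those of Phf3 (144 and 153 CPM in lung, 175 and 160.2 CPM in brain), Arhgef11 (105 and 109.7 CPM, 118 and 124 CPM), Jade2 (89.2 and 113 CPM, 111 and 116 CPM), Mtmr6 (115 and 110.5 CPM, 137 and 118 CPM), Ccny (105 and 111 CPM, 137 and 108 CPM) and Nrd1 (170.3 and 156 CPM, 179.7 and 187 CPM). None of the 6 passed the test. They were selected for this closeness, so their values are a description. Genes often used as constant references did not all behave as such: Actb, the cytoskeletal actin, was higher in lung, with 7204 and 5945 CPM against 818 and 872 CPM (log2 fold change 3.13 ± 0.19 (SE), adjusted p = 1.46e-08). Gapdh did not pass, with 136 and 101 CPM in lung and 117 and 112 CPM in brain. The Gapdh level lay below those of Aldoa and Pkm above in every library, and whether all of its reads were counted was not tested.

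Gene length went with the direction of the difference. Among protein-coding genes past 2-fold, the median distance from gene start to gene end was 37.1 kb for genes higher in brain and 19.4 kb for genes higher in lung. For genes that were not past 2-fold it was 23.4 kb. The median length of exons differed too, with 5.09 kb, 3.71 kb and 4.38 kb in the same order, and its part in the calls was not tested. Of genes shorter than 10 kb, 16.9% were past 2-fold in brain and 27% in lung. Of the 537 genes of 300 kb or more, 61.8% were past 2-fold in brain and 7.82% in lung, as the plot by gene length shows. Long genes with large differences included Csmd3, Lrp1b and Grin2b above. Genes are not independent replicates, so no test is attached to this pattern, and gene length was not used as a covariate in the fit.

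**Figure D4:**
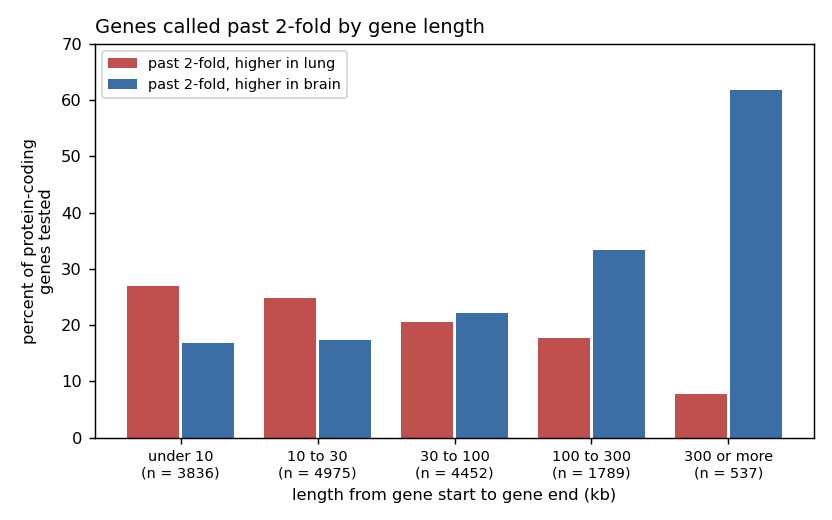
Percent of the tested protein-coding genes called past 2-fold by edgeR in lung (red bars) or in brain (blue bars), by the length from gene start to gene end in the GENCODE M21 annotation, with the number of genes in each length class. The brain share rises from 16.9% to 61.8% with length and the lung share falls from 27% to 7.82%.

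The contrast between the organs was also seen in libraries that the test did not use, those of stromal cells sorted beside tumours (7 from lung, 3 from brain). Per the labels, the lung libraries had met the tumour cell lines Brx07 (2), Brx42 (1), Brx50 (3) and Brx68 (1) and the brain libraries Brx50 alone, so the organs also differ in their mix of lines. Of the 13577 genes called in the tumour-free comparison, 5744 (42.3%) had exposed lung and exposed brain libraries that did not overlap in CPM in the same direction, and 18 (0.133%) in the opposite direction. The background over all 18859 genes was 33.3% without overlap in either direction, and 413 of the 5282 genes that did not pass (7.82%) were separate in the direction of their fitted value. The same-direction count was 3944 of 7051 genes (55.9%) for those higher in brain and 1800 of 6526 (27.6%) for those higher in lung, and this difference was not tested. With Brx50 alone, 3 libraries an organ, 7264 of the 13577 (53.5%) were separate in the same direction and 58 (0.427%) in the opposite direction, against 44% of all genes tested without overlap in either direction. The exposed lung libraries varied widely. The lowest, median and highest level of Sftpc was 62.4, 1385 and 3046 CPM in lung and 0, 0.158 and 3.73 CPM in brain, and that of Cdh5 was 42.7, 1945 and 2597 CPM and 41, 47.2 and 60.9 CPM, so the organs overlapped for Cdh5. Snap25 was at 0, 0 and 0.174 CPM in exposed lung and 164, 509.7 and 754 CPM in exposed brain, without overlap, and P2ry12 at 3.29, 5.42 and 7.62 CPM and 51.6, 295 and 314 CPM. The tumour-free lung libraries lay within the range of the exposed ones for Sftpc, Cdh5 and Marco. For Scgb1a1 the higher of the 2 lay above it.

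**Figure D5:**
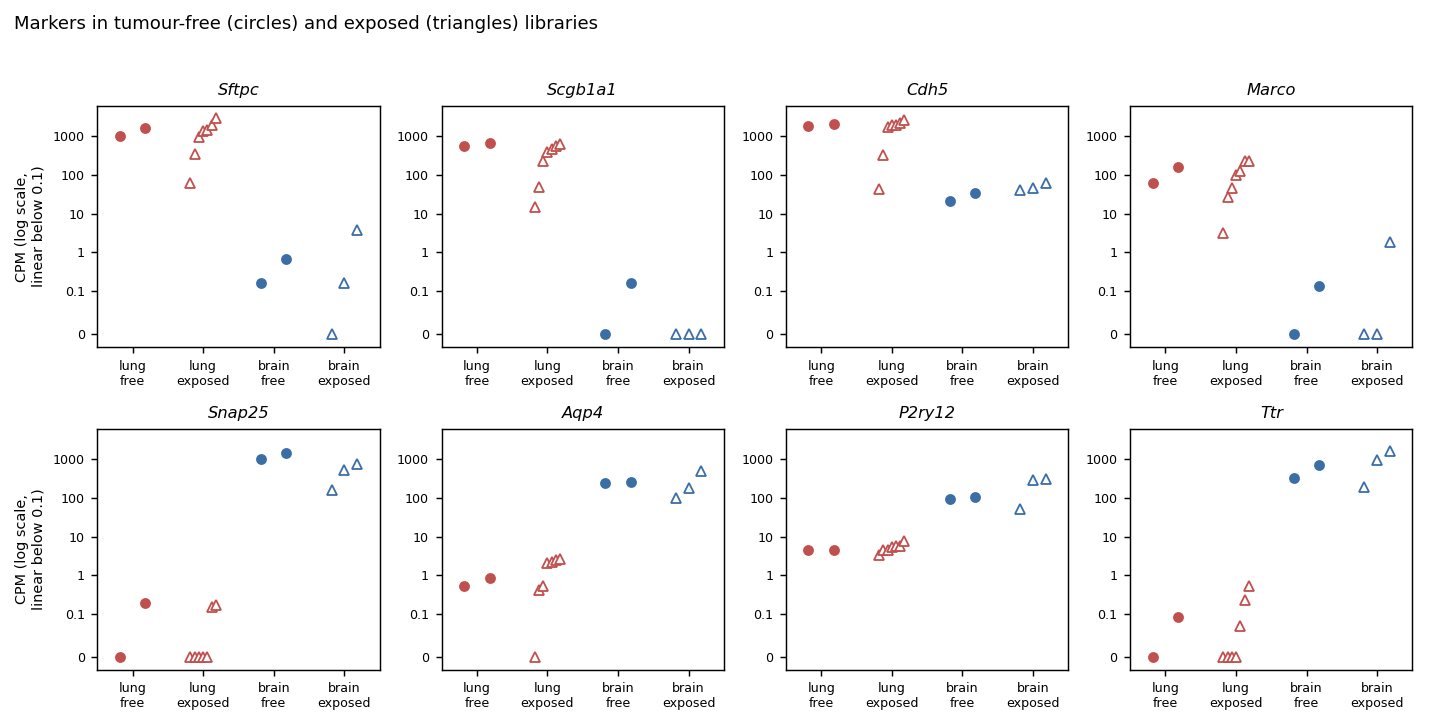
CPM (log scale, linear below 0.1) of 8 marker genes in the tumour-free libraries (filled circles, 2 from lung and 2 from brain) and in the libraries from tumour-bearing mice (open triangles, 7 from lung and 3 from brain), red for lung and blue for brain, each group in ascending order. Snap25 and Ttr remained separate between the organs in all libraries, while Cdh5 in 1 exposed lung library came down to 42.7 CPM, among the brain libraries.

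Single markers of thyroid, pituitary, heart and bone were below 10 CPM in all 4 tumour-free libraries, while the blood marker Hbb-bs reached 162 CPM in the second brain library, as given above. Tg, the thyroglobulin gene of the thyroid, had 5.29 and 6.04 CPM in lung and 0.638 and 0.4 CPM in brain, while the exposed lung libraries ranged from 3.44 to 3774 CPM. Pomc, the pituitary prohormone gene, had 2.39 and 2.67 CPM in brain and 0.269 and 0.651 CPM in lung, against 122, 162 and 169 CPM as lowest, median and highest in exposed brain. The heart myosin gene Myh6 had 1.79 and 1.67 CPM in lung and 7.97 and 9.46 CPM in brain, and the osteoblast gene Bglap had 0.179 and 0.093 CPM and 0.16 and 0 CPM. Broader lists were not all low in sum. The heart muscle list summed to 626 and 624 CPM in brain and 23.5 and 44.5 CPM in lung, and the calcium channel gene Ryr2, which neurons also use, made up most of the sum in brain, with 608 and 607 CPM in brain and 5.02 and 8.28 CPM in lung. The adipocyte list summed to 776 and 446.5 CPM in lung and 31.4 and 41.7 CPM in brain, most of it the lipoprotein lipase gene Lpl (624 and 319 CPM in lung, 19.6 and 24.6 CPM in brain) and Fabp4, while the defining gene Adipoq stayed below 1 CPM.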

How the data were processed

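RNA of sorted GFP-negative mouse cells was sequenced in 30 libraries. The authors deposited 1 table of raw counts for 43346 Ensembl genes. The submitters' processing notes name STAR 2.5.2b and HTSeq, and list mm10, GRCm38.p5, hg19 and GRCh37 as genome builds without a role. The strand setting was not given in the sources used here, so overlapping and antisense genes cannot be told apart. GENCODE M21 (GRCm38) gave symbols to 42462 IDs. The other 884 held 0.138% of counts in the 4 libraries.

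Counts were fitted with edgeR 4.0.16 in R 4.3.3 (TMM scaling, filterByExpr, robust quasi-likelihood test, Benjamini-Hochberg adjustment at 0.05, and a test against 2-fold) over the 7 tumour-free libraries, 2 from lung, 2 from brain and 3 from bone, with the contrast lung minus brain. CPM are counts scaled to 1000000 per library. For a gene at 0 in an organ, the fold is a lower bound against 3 counts over both libraries. In simulated data 200 genes were changed, and 17992 genes passed the filter and were tested. Changed genes that the filter removed are not in the shares that follow. Recovered were 52.9% of the 51 tested genes changed 2-fold, 83.6% of 61 changed 4-fold and 96.2% of 79 changed 16-fold. There were 14 calls on unchanged genes. In the real comparison 72% of the genes tested were called, so these rates need not carry over to it. DESeq2 1.42.0 and limma 3.58.1 served as alternatives.

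Genes are named by rule: in each direction the 12 largest differences with at least 10 CPM and the 8 highest levels per kb among protein-coding genes, the 5 most abundant members of each of 72 gene lists, members of families and regulator lists, and defining markers. The members and lists were chosen with earlier results of these data known. Chosen after their values were seen were Adipoq, Areg, Bmp7, Chrd, Cyp46a1, Egr3, Etv5, Fgf12, Fgf13, Fgf14, Fgfr3, Gapdh, Grem1, Hgf, Id4, Ifit2, Ifit3, Il33, Il34, Isg15, Mmp24, Nrg3, Rsad2, Slc16a3, Slc22a8, Slco1a4, Stmn2, Tgfa, Timp3, Timp4, Trf and Vegfb. Some genes that the rule names are not reported here.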

Additional observations from a re-analysis of the deposited data

How the results depend on the processing

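The main counts were 13577 genes called, 6526 higher in lung, 7051 higher in brain and 8500 past 2-fold. The fit over all 30 libraries in 6 groups gave 5165, 2467, 2698 and 3168, and the cause was not tested. DESeq2 called 12196 genes and limma-voom 13522. Fits with other scalings, filters or thinned counts, or with the 4 lung and brain libraries alone, called between 12691 and 14317 genes. Without 1 library the ranges were 12032 to 12622 called, 5902 to 6235 higher in lung, 6130 to 6387 higher in brain and 7307 to 8022 past 2-fold. No gene called in the main fit was called in the other direction by any alternative. The median log2 fold change moved by -0.17 with no scaling beyond the total, and the split of calls stayed within 10 percentage points. By the replicate numbers of the titles, same-numbered lung and brain libraries did not deviate together over the genes (r = -0.033). With 2 libraries an organ this is a single value, and it cannot show whether the numbers pair libraries of the same mouse. The count table numbers the brain libraries 2 and 3, so its numbers conflict with the titles and share only 1 number with lung. With the replicate number as a block, 13197 genes were called, 6356 higher in lung and 6841 higher in brain, with 8360 past 2-fold. With all libraries thinned to the smallest total, 12691 genes were called, 6037 higher in lung and 6654 higher in brain. The comparison of exposed libraries within Brx50 was chosen after seeing the data.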
